A study of Mus musculus with 9 samples.

Results

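Zfp608 is the gene of a large zinc finger protein of the nucleus. It occupies 104.5 kb of mouse chromosome 18, chr18:54888045-54992591 on build mm10, in the RefSeq table for the assembly. Its members here are the accessible regions, or peaks, that overlap this gene body, together with peaks that overlap no protein-coding gene and have it as the nearest body within 100 kb. There were 24 such peaks of 61540 in the series, 19 in the body and 5 outside it. The gene was chosen by its accessibility in these same 9 samples. The comparison behind that choice is not stated and is taken here to be KO against P915H. Its values in that comparison are therefore a description, and the comparisons with WT share samples with it.

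ATAC-seq uses a transposase that cuts and tags open chromatin, and it was applied to splenic age-associated B cells isolated on a cell sorter. All samples came from mice of 20 weeks of the MRL/lpr strain, which carries a Fas mutation and develops a lupus-like disease, made chimeric with bone marrow of 3 genotypes at once. KO cells (TLR9-/-) lacked Tlr9, the endosomal receptor for CpG DNA, P915H cells carried a non-signalling form of it on both alleles, and WT cells had it intact. Each genotype had 3 samples. Neither the host of each sample nor separate mice for the samples of 1 genotype are given in the labels, so p-values measure only the spread between these samples, which may be technical.

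Zfp608 has been described in developing T cells as a repressor of Rag1 and Rag2, the genes of the recombinase that assembles antigen receptor genes. Its close paralogue Zfp609 has been described as a partner of the cohesin loader Nipbl and of the Integrator complex. Many accessible sites inside and around a gene are enhancers or other control elements rather than promoters. Accessibility is not expression, and a peak that is nearest to a gene need not control it.

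Values are log2 accessibility as the authors normalized it, so 1 unit is a doubling, and sequencing depth is not known. They are read here as log2 CPM of reads in peaks, though how they were normalized is not stated. Per sample, the antilogs added up to between 0.987 and 1.014 of the nominal CPM total, and the median over all peaks ran from 3.02 to 3.12. At the targeted gene Tlr9, the 2 peaks of the gene had 5.75 to 6.16 and 3.29 to 3.65 over the 9 samples with no difference that passed, and since the deleted part is not in the labels, these check no genotype. The B cell marker genes Ms4a1, Cd79a, Cd79b, Pax5 and Ebf1 had peaks. All 6 genes of the age-associated B cell list, Itgax and Tbx21 among them, had peaks as well. So did most genes of the other lists below, so having a peak does not identify the cells. The summed level of those B cell markers, in log2 units, was 10.2 to 10.3 in KO, 10.4 to 10.5 in P915H and 10.4 in WT, and that of the age-associated list was 9.26 to 9.33, 9.22 to 9.32 and 9.29 to 9.35. Of 7 T cell marker genes, Cd4, Cd8a and Bcl11b had no peak. The summed level of the other 4 was 7.44 to 7.45 in KO, 7.14 to 7.27 in P915H and 7.25 to 7.38 in WT. For macrophage and monocyte markers, 4 of 5 genes had peaks, Lyz2 being without one, and the sum was 7.45 to 7.65 in KO, 7.70 to 7.83 in P915H and 7.63 to 7.84 in WT. For natural killer cell markers, 3 of 4 genes had peaks (Ncr1 had none), with sums of 7.92 to 7.96, 7.90 to 7.96 and 7.94 to 8.0. For plasma cell markers, all 5 genes had peaks, with sums of 9.16 to 9.21, 9.04 to 9.14 and 9.08 to 9.16. T cell and plasma cell marker sums were thus higher, and B cell and macrophage sums lower, in every KO sample than in every P915H sample. The part of differences in cell makeup in the Zfp608 values was not tested.

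The peaks are numbered 1 to 24 here in order of coordinate. Peaks 1 to 4 lay outside the end of the gene with the lower coordinate, peaks 5 to 23 overlapped the body, and peak 24 lay outside the other end. The gene table used here has no strand, so the ends are named by coordinate. Zfp608 lay in a gene-poor stretch. The nearest protein-coding neighbours with a peak were Csnk1g3, 932.4 kb from its lower end, and Gramd3, 1394.9 kb from its higher end. Long non-coding genes overlapped some members: Gm33732 peak 1, and Gm4221, which extends into the body, peaks 21 to 24.

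Along most of the locus KO was the least accessible genotype and P915H the most, with WT between them. Over the 24 peaks, KO had a mean of 2.70 ± 0.21 (SD, n = 3), WT one of 3.26 ± 0.11 and P915H one of 3.42 ± 0.12. By sample it was 2.94, 2.53 and 2.62 in KO, 3.16, 3.37 and 3.26 in WT, and 3.29, 3.47 and 3.49 in P915H. Every KO sample lay below every other sample, while the WT and P915H samples overlapped. In bulk samples, fewer cells with an open site and less opening per cell cannot be told apart. The means stood in the order KO, WT, P915H at 19 of the 24 peaks, an order held by 27.7% of all peaks. A choice of the gene by KO against P915H, as assumed here, favours that order in advance. Nothing is therefore read from the gap between these shares.

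**Figure D1:**
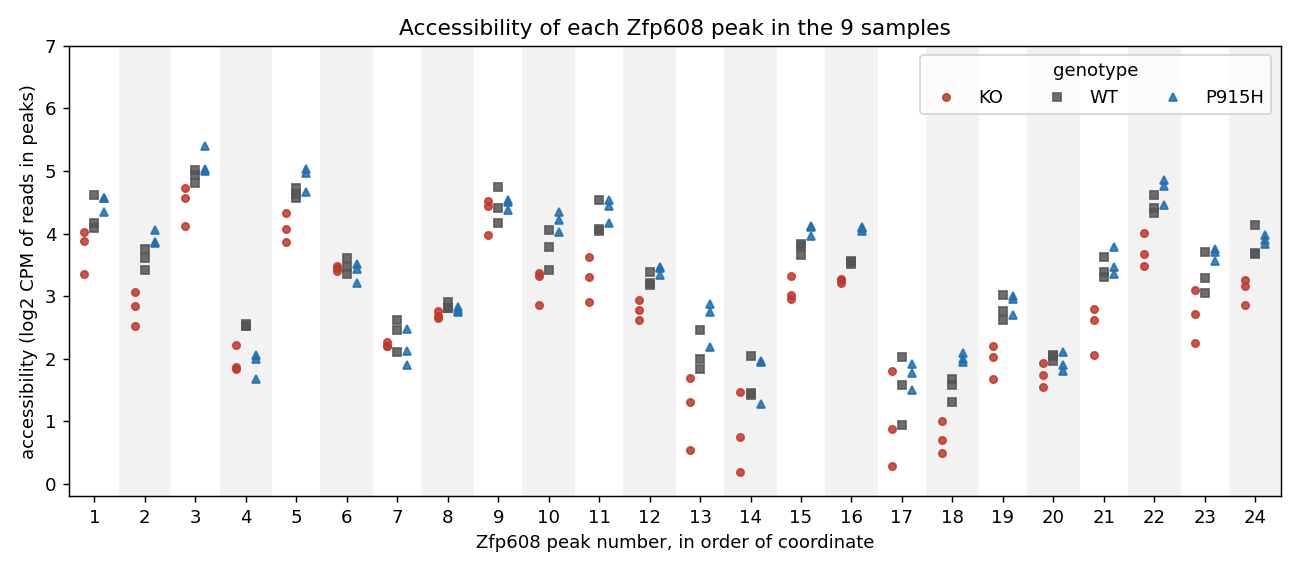
Accessibility (log2 CPM of reads in peaks, vertical axis) of the 24 Zfp608 peaks (horizontal axis, numbered in order of coordinate) in each of the 9 samples, with 1 point per sample. All KO points lie below all P915H points at 16 peaks, and at peaks 6 to 9 the genotypes lie close together.

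Between KO and P915H, 16 of the 24 peaks were lower in KO at a limma adjusted p under 0.05, as were 8.97% of all peaks. None was higher, nor at an unadjusted p under 0.05, against 6.55% of all peaks after adjustment. These counts repeat what is taken to have chosen the gene, and nothing is read from them. The median log2 difference of KO from P915H was -0.82 over the 24 peaks and -0.01 over all peaks. At the same 16 peaks all 3 KO samples lay below all 3 P915H samples, as at 22.7% of all peaks, and no member showed the opposite separation, found at 19.5% of all peaks.

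The count depended on single samples. The direction stayed the same at every one of the 16 peaks whichever sample was left out. Since the KO and P915H samples did not overlap at these peaks, that was nearly fixed in advance and nothing is read from it. The count was 8 without KO replicate 2 and 8 without KO replicate 3, when 3.32% and 2.84% of all peaks were lower in KO. It was 4 without P915H replicate 2 and 6 without P915H replicate 3, when the shares of all peaks were 2.3% and 3.72%. Without KO replicate 1 it was 18, against 11.1% of all peaks. KO replicate 1 was the highest of the KO samples at 17 of the 24 peaks, and P915H replicate 1 the lowest of the P915H samples at 18. Peaks 2, 15, 16 and 22 passed in each of 18 alternative analyses.

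**Figure D2:**
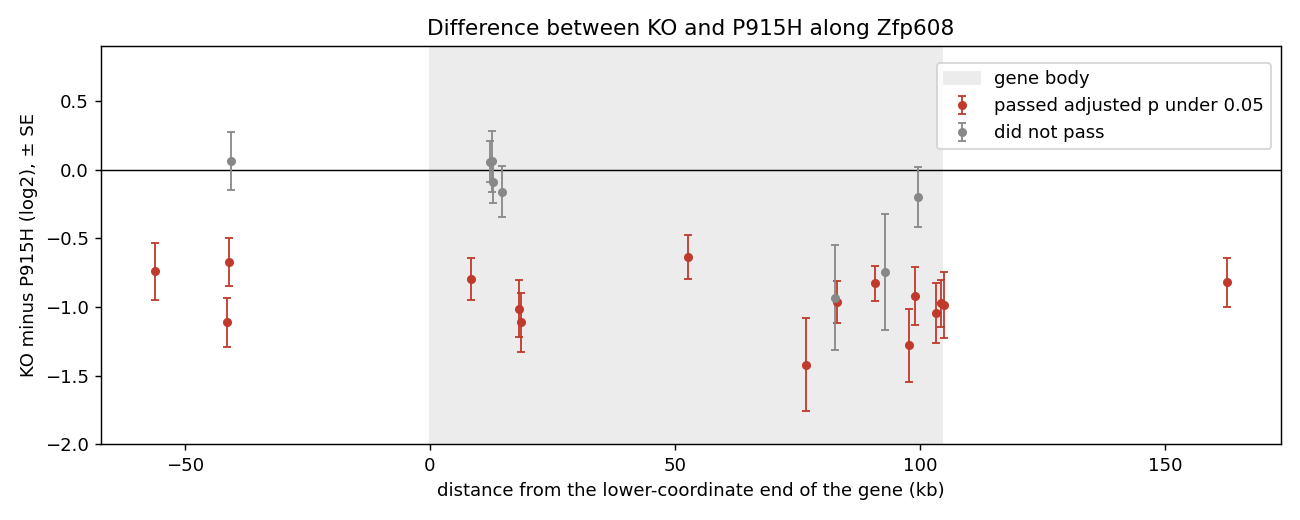
Difference between KO and P915H (log2, vertical axis, with the SE of the fit) against the distance of each of the 24 peaks from the lower-coordinate end of Zfp608 (kb, horizontal axis). The gene body is shaded, red points passed limma's threshold, and the grey points near 0 are mostly a group of 4 peaks close to the lower-coordinate end.

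The deepest loss in KO relative to P915H within the gene was at peak 13 (chr18:54964696-54964934). It had 1.69, 0.55 and 1.31 in the KO samples, 1.99, 2.46 and 1.83 in WT, and 2.19, 2.88 and 2.74 in P915H. The KO samples were all below the other 6, and 1 WT sample reached into the P915H range. KO differed from P915H by -1.42 (SE 0.34), which is 2.68-fold. This was a weak peak, and the spread among its KO samples was 0.58 (SD, n = 3).

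Peak 18 (chr18:54985609-54985906), 6.7 kb inside the higher-coordinate end, had 1.00, 0.69 and 0.50 in KO, 1.31, 1.58 and 1.67 in WT and 1.95, 1.99 and 2.09 in P915H. None of the 3 groups overlapped. The difference of KO from P915H was -1.28 (SE 0.27).

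Peak 16 (chr18:54978788-54978997) had the closest replicates of the locus. Its values were 3.22, 3.27 and 3.26 in KO, 3.55, 3.51 and 3.57 in WT, and 4.10, 4.08 and 4.04 in P915H. The 3 genotypes were again separate, but here WT stood nearer to KO, at 35.4% of the way from the KO mean to the P915H mean. The difference of KO from P915H was -0.83 (SE 0.13). At the 16 peaks that passed, WT stood at a median of 70.1% of the way, from this 35.4% up to 90.6% at peak 21. The median over all 5520 peaks in the series that were lower in KO was 70.9%, so the position of WT at Zfp608 was near that of such peaks in general.

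Peak 15 (chr18:54970906-54971116) also kept the genotypes apart. It had 3.31, 3.02 and 2.96 in KO, 3.65, 3.80 and 3.84 in WT, and 3.95, 4.10 and 4.12 in P915H. Only 58 bp separated it from peak 14, which had 1.46, 0.75 and 0.18 in KO and 1.28, 1.97 and 1.95 in P915H. At peak 14 the groups overlapped through 1 KO sample, the difference of -0.93 (SE 0.39) did not pass, and without KO replicate 1 it was -1.43 and passed. Peak 17 was similar, with 1.80, 0.87 and 0.28 in KO, 1.50, 1.78 and 1.92 in P915H, and a difference of -0.75 (SE 0.42) that was -1.36 and passed without that sample. Without KO replicate 3 instead, the difference shrank to -0.47 at peak 14 and -0.22 at peak 17, and neither passed.

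The higher-coordinate end of the body carried 3 peaks within 2 kb. Peak 23 (chr18:54992522-54993087) spans the end itself and is 565 bp long. It had 3.10, 2.71 and 2.26 in KO, 3.05, 3.29 and 3.70 in WT and 3.56, 3.71 and 3.75 in P915H. Its WT samples spread over both other groups, and KO differed from P915H by -0.98 (SE 0.24). Peak 22 (chr18:54992101-54992323), 268 bp inside the end, had 4.01, 3.48 and 3.67 in KO, 4.41, 4.62 and 4.34 in WT and 4.45, 4.76 and 4.86 in P915H, so that WT and P915H overlapped and KO lay below both. Peak 21, 1267 bp inside the end, had 2.79, 2.61 and 2.06 in KO, 3.30, 3.38 and 3.62 in WT and 3.36, 3.46 and 3.78 in P915H. There the loss in KO was -1.05 (SE 0.22) against P915H and -0.95 against WT, and P915H and WT were nearly level. All 4 peaks that overlap Gm4221 passed, and reads there cannot be given to one gene or the other.

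Near the lower-coordinate end the locus was divided. Peaks 6, 7, 8 and 9, which lie together at chr18:54900197-54902841, did not pass, with differences of KO from P915H of 0.06, 0.06, -0.09 and -0.16. Peaks on both sides of this group did pass: peak 5, which lies 3609 bp from peak 6, and peaks 10 and 11, the first of them 3344 bp from peak 9. The SE of the fit at peaks 6 to 9 was 0.15 to 0.22, against 0.13 to 0.34 at the peaks that passed. Their mean level of 2.26 to 4.41 was within the 1.42 to 4.84 of the peaks that passed. Whether neighbouring peaks differ from each other in their response was not tested.

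Peak 9 (chr18:54902629-54902841) shows that the flat peaks included strong ones. It had 4.44, 3.98 and 4.52 in KO, 4.41, 4.74 and 4.17 in WT, and 4.38, 4.50 and 4.53 in P915H, with all groups overlapping. Peak 6 (chr18:54900197-54900470) had 3.40, 3.48 and 3.44 in KO, 3.47, 3.61 and 3.36 in WT and 3.44, 3.21 and 3.51 in P915H. Peak 7 had 2.20, 2.27 and 2.20 in KO, 2.46, 2.62 and 2.11 in WT and 2.13, 1.89 and 2.47 in P915H. In both the KO samples fell inside the range of the others.

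By contrast, peak 5 (chr18:54896378-54896587), 8333 bp inside the lower-coordinate end and the one nearest to it, had 4.33, 3.86 and 4.08 in KO, 4.63, 4.73 and 4.57 in WT and 4.67, 5.03 and 4.97 in P915H. KO was apart from both other groups, which overlapped, and its difference from P915H was -0.80 (SE 0.15). Peak 11 (chr18:54906503-54906915) had 3.63, 2.90 and 3.30 in KO, 4.08, 4.53 and 4.04 in WT and 4.17, 4.45 and 4.54 in P915H. Its difference was -1.11 (SE 0.21), and WT lay close to P915H.

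Outside the body, peaks 2, 3 and 4 formed a group 40.4 to 41.1 kb beyond the lower-coordinate end. Peak 3 (chr18:54846984-54847190) was the most accessible member, at 7.12 log2 CPM per kb of peak length over all samples, followed by peak 5 at 6.80 and peak 9 at 6.64. Peak 3 had 4.72, 4.12 and 4.56 in KO, 4.81, 5.01 and 4.94 in WT and 5.0, 5.40 and 5.03 in P915H. Its difference of KO from P915H was -0.67 (SE 0.17).

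Peak 2 (chr18:54846580-54846903) lay 80 bp from peak 3 and had 3.06, 2.52 and 2.85 in KO, 3.42, 3.76 and 3.61 in WT and 3.85, 4.05 and 3.87 in P915H. No groups overlapped, and the difference was -1.11 (SE 0.18). Peak 4 (chr18:54847470-54847655), 279 bp further on, went another way. It had 2.22, 1.83 and 1.87 in KO and 1.67, 2.06 and 1.99 in P915H, which overlapped, while WT was above both with 2.52, 2.52 and 2.55. KO and P915H differed there by 0.06 (SE 0.21).

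The members nearest to the 100 kb limit were peak 1, 55.9 kb from the body on the lower side, and peak 24, 57.9 kb from it on the higher side. Peak 1 (chr18:54831865-54832099) had 3.89, 3.35 and 4.02 in KO, 4.08, 4.62 and 4.18 in WT and 4.57, 4.57 and 4.34 in P915H. Peak 24 (chr18:55050524-55050746) had 3.25, 2.85 and 3.16 in KO, 3.67, 4.13 and 3.69 in WT and 3.91, 3.84 and 3.98 in P915H. At both, KO lay below the other genotypes, which overlapped.

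Beyond the limit, only 2 more peaks had Zfp608 as the nearest protein-coding gene. The peak at chr18:55146740-55146967, 154.1 kb away, had 1.36, 0.84 and 0.39 in KO, 1.43, 1.69 and 1.91 in WT and 1.88, 2.14 and 2.36 in P915H. The peak at chr18:55623995-55624405, 631.4 kb away and inside the non-coding gene Gm34295, had 1.57, 1.27 and 1.01 in KO, 1.70, 1.72 and 2.07 in WT and 2.03, 2.3 and 2.22 in P915H. Both had the same order of genotypes, with differences of KO from P915H of -1.26 (SE 0.31) and -0.90 (SE 0.25).

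By position, the median difference of KO from P915H was -0.71 over the 4 peaks beyond the lower-coordinate end, of which 3 passed. With the body cut into 3 equal parts, it was -0.16 over the 7 peaks of the lowest part, of which 3 passed, and -0.96 over the 11 of the highest, of which 8 passed. The middle part held 1 peak, number 12, which passed at -0.64 (SE 0.16). The 16 peaks that passed had a median length of 228 bp and the other 8 had 220 bp. Per kb of length their median levels over all samples were 5.59 and 4.51 log2 CPM. The 3 widest errors, with SE from 0.34 to 0.42, were at peaks 13, 14 and 17, whose mean levels of 1.39 to 1.96 were among the lowest of the locus.

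**Figure D3:**
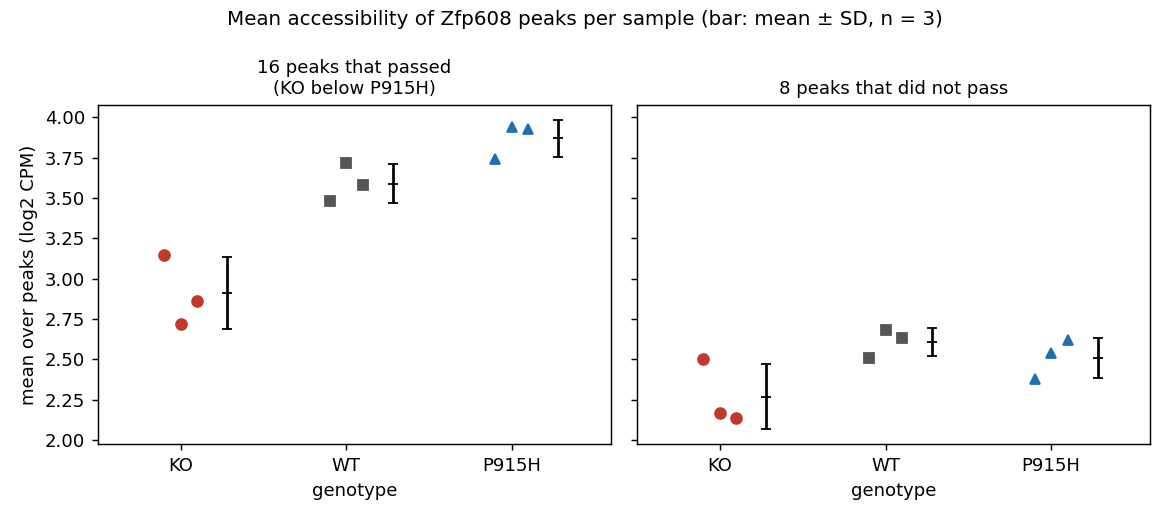
Mean accessibility per sample (log2 CPM, vertical axis) by genotype over the 16 Zfp608 peaks that passed between KO and P915H (left) and the 8 that did not (right), with the mean ± SD of 3 samples beside the points. On the left KO is at 2.91 ± 0.22, WT at 3.59 ± 0.12 and P915H at 3.87 ± 0.11, a separation that follows from how the 16 were picked, and on the right they are at 2.27 ± 0.20, 2.61 ± 0.09 and 2.51 ± 0.12.

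Set against WT, the median departure of KO was larger than that of P915H, which is a description only. A choice by KO against P915H, as assumed here, favours KO below WT and P915H above WT in advance. Whether the departures differ in size is asked by WT against the mean of both mutants, below, where no member passed. At the 16 members that passed between KO and P915H, the median difference of KO from WT was -0.70. Over all 5520 peaks lower in KO than in P915H it was -0.68. The 24 differences of KO from WT were all negative, from -0.95 at peak 21 to -0.04 at peak 6, with a median of -0.56, against 0.00 over all peaks. None of the 24 passed limma's adjusted threshold, which 0.0146% of all peaks passed in that direction. The smallest adjusted p was 0.0684. At an unadjusted p under 0.05, 17 of the 24 were lower in KO than in WT by limma, against 11.5% of all peaks. All 3 KO samples were below all 3 WT samples at 18 members and at 17.5% of all peaks. Without KO replicate 1, 9 members passed after adjustment, when 4.74% of all peaks did, and the median difference over all 24 members was -0.79.

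For P915H the median difference from WT was smaller. The differences were positive at 19 of the 24 peaks, with a median of 0.19 against 0.02 over all peaks, and none passed after adjustment, which 0.00325% of all peaks did in that direction. The smallest adjusted p was 0.179, at peak 16, where P915H exceeded WT by 0.54 (SE 0.13). Peak 16 was also the 1 member above WT at an unadjusted p under 0.05 by limma, against 2.63% of all peaks. All 3 P915H samples exceeded all 3 WT samples at 4 members, peaks 2, 15, 16 and 18, and at 9.51% of all peaks. The largest difference in the other direction was -0.62 (SE 0.21) at peak 4. The comparisons of KO and of P915H with WT use the same WT samples, so their values are set side by side and not correlated.

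**Figure D4:**
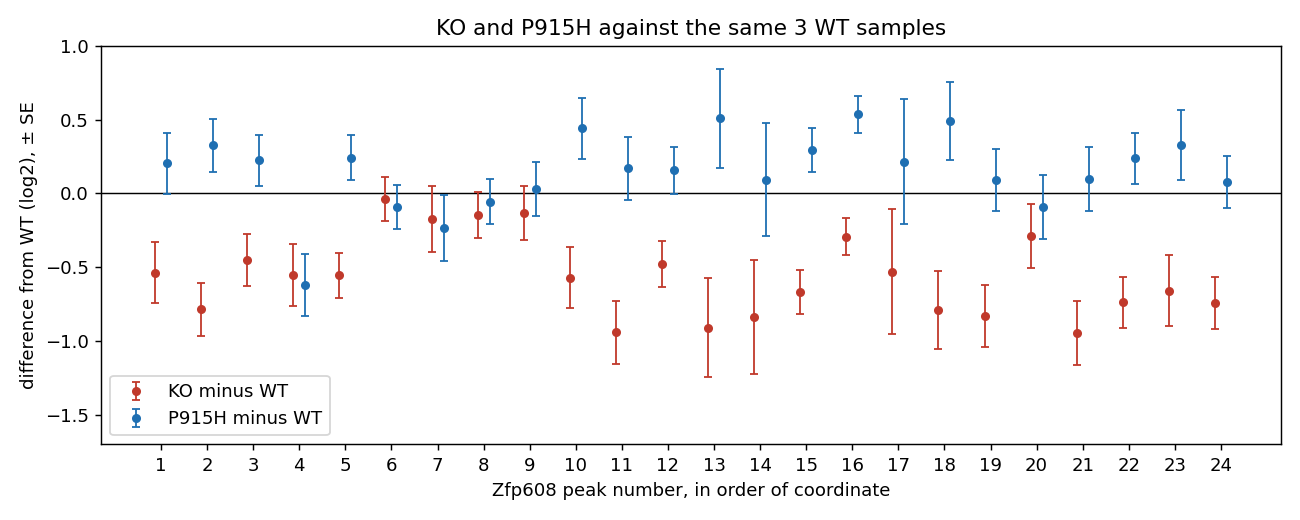
Differences of KO (red) and P915H (blue) from the same 3 WT samples (log2, vertical axis, with the SE of the fit) at the 24 Zfp608 peaks (horizontal axis). All red points are below 0, the blue points are above 0 at 19 peaks, and both are below 0 at peaks 4, 6, 7, 8 and 20.

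The comparison of WT with the mean of KO and P915H does not use the difference between those genotypes. It is independent of the choice of the gene only if that choice rested on KO against P915H, which was assumed. WT was above that mean at 23 of the 24 peaks, by a median of 0.18, against 0.01 over all peaks. None passed limma's adjusted threshold, and neither did any other peak of the series (0.0%). The smallest adjusted p among the members was 0.890. At an unadjusted p under 0.05, 2 members were above the mean, peaks 4 and 21, against 2.67% of all peaks. Peak 4 had the largest value, 0.59 (SE 0.18), with WT above all KO and P915H samples. By p, it was followed by peak 21 at 0.42 (SE 0.19) and, short of the unadjusted level, peak 24 at 0.33 (SE 0.15). Peaks 11, 14 and 19 had larger values than peak 24, from 0.37 to 0.39.

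The share of Zfp608 peaks lower in KO than in P915H, 66.7%, was exceeded by 6 of the 1223 genes with at least 10 peaks. These were Pde4d with 84.0%, Col4a1, Msrb3, Disc1, Pde7b and Srgap3, and the median over genes was 8.33%. Among large loci of B cell regulators, Foxp1, a transcription factor gene of resting B cells, had 30 lower and 0 higher of 76 peaks. Bach2, the gene of a repressor of plasma cell differentiation, had 9 lower and 3 higher of 58. Zbtb20, a zinc finger gene of the BTB family, had the opposite balance, with 3 lower and 20 higher of 36, and Sox5 had 2 lower and 7 higher of 25. The median difference of KO from P915H was -0.82 at Zfp608, -0.50 at Foxp1, -0.03 at Bach2, 0.78 at Zbtb20 and 0.26 at Sox5. Of all peaks in the series, 8.97% were lower and 6.55% higher in KO. These loci were also picked with results known, and the differences between them were not tested.

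**Figure D5:**
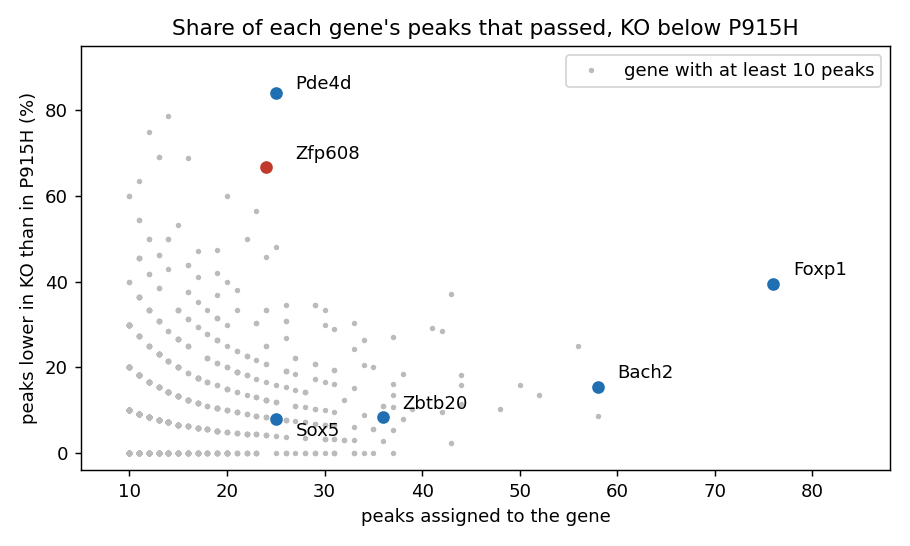
Share of peaks lower in KO than in P915H at limma's adjusted threshold (percent, vertical axis) against the number of peaks assigned (horizontal axis) for 1223 genes with at least 10 peaks. Zfp608, in red, has 66.7% of 24 peaks, and Foxp1, Bach2, Zbtb20, Sox5 and Pde4d are marked in blue.

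Likeness to other genes was measured as Pearson's r between the mean over a gene's peaks and that over the Zfp608 peaks across the 9 samples. The most alike were Runx1 (0.997), Pde4b (0.997), Tiam1 (0.996), Pag1 (0.996) and Tmem108 (0.995). These values rest on 9 samples that share their genotype differences and the removal of a replicate effect, and 163 of the genes exceeded 0.95. The size of the difference was not shared, since the median of KO against P915H was -0.18 at Runx1, -0.25 at Pde4b, -0.35 at Pag1, -0.70 at Tiam1 and -1.19 at Tmem108.

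Of the 10 genes taken as related, 8 had peaks, 152 in all. Of these peaks, 22 were lower and 9 higher in KO than in P915H, against 8.97% and 6.55% of all peaks. The described targets Rag1 and Rag2 had no peak in the table. The paralogue Zfp609 had 4 peaks, of which 2 were lower in KO. At the one with the smaller p (chr9:65787551-65787763) the mean was 2.83 in KO, 3.58 in WT and 3.85 in P915H, a difference of KO from P915H of -1.02 (SE 0.19, limma adjusted p = 0.00705). Nipbl, the cohesin loader, had 1 lower and 2 higher of 14, with 1.84 (SE 0.22, limma adjusted p = 0.00135) at its leading peak. The Integrator subunit gene Ints1 had 1 lower peak of 5, and Ints13 had none that passed of 4.

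The B cell transcription factor genes of that list had called peaks in both directions, apart from Bcl6, a germinal centre regulator, with 2 lower of 11. Ikzf1 had 4 lower and 3 higher of 36, Ebf1 had 7 and 2 of 52, and Pax5 had 5 and 2 of 26. The genes that flank Zfp608 had 2 lower peaks of 32 between them, against 8.97% of all peaks. At Csnk1g3, a casein kinase gene, 1 of 17 was lower in KO, and at Gramd3 1 of 15. That Gramd3 peak (chr18:56447145-56447375) had means of 1.67 in KO, 2.80 in WT and 3.46 in P915H.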

How the data were processed

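ATAC-seq libraries of sorted splenic age-associated B cells, 3 per genotype, were the starting point. The deposited table holds log2 values, and a deposited companion table holds the peak coordinates. Per the submitters' processing notes, the tools were MACS2, limma, SAMtools, Bowtie2 2.3.3, Trim Galore 0.6.5 and Picard 2.18.12, with build mm10 and no role for each. How values were normalized, and on which samples peaks were called, is not stated in the sources used here. At every peak, replicate numbers 1, 2 and 3 had equal means over the genotypes (largest difference 1.78e-14), so a replicate effect had been removed before deposit. SDs within a genotype therefore understate the spread, and the values hold 4 residual degrees of freedom.

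A single model of genotype and replicate number with an intensity trend was fitted to the 61540 peaks and 9 samples in limma 3.58.1 (R 4.3.3). Tests were two-sided, p-values were adjusted by the Benjamini-Hochberg method across the whole table, and the threshold was 0.05. Errors given as SE come from the model. Peaks were not filtered, and no pseudocount was used. The fit was tested on simulated data. Peaks were assigned by the RefSeq table of GRCm38.p6, which has no strand. Length is end minus start. A marker of the lists is not reported here.

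The gene, the lists and the tests were chosen with earlier results of these data known. Peaks given in full were those with the largest rises and falls of KO against P915H, the highest means, the smallest p against the mean of both mutants, and those nearest the gene ends and the 100 kb limit. The plan named the peak nearest the start, which needs strand, so both ends are given. Peaks 8, 10, 12, 14 to 17, 20 and 22, and the 6 genes with a larger share, were chosen after their values were seen. The alternatives covered the replicate term, normalization, sample weights, the trend, the samples in the fit, low values, a pseudocount, the threshold, the window and each sample left out. Tables used pandas 2.3.3 and NumPy 2.4.6 in Python 3.11.15, and plots matplotlib 3.10.9.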

Additional observations from a re-analysis of the deposited data

How the results depend on the processing

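Between KO and P915H, no Zfp608 peak was higher in KO in any alternative, and no single-peak value that passed changed sign. The signs were nearly fixed in advance, since the KO and P915H samples did not overlap at the peaks that passed. The count of lower peaks ran from 4 to 18 with a sample left out, and the median from -1.04 to -0.71. Over the other alternatives the count was 12 (gene body only) to 17. Without the replicate block, fitted by genotype alone, 16 Zfp608 peaks were lower in KO than in P915H (15.6% of all peaks were), 12 were lower in KO than in WT (7.02%) and 1 was higher in P915H than in WT (0.187%). Whether the numbers pair the samples cannot be seen in values from which their effect was taken out. Sample weights gave 5 peaks lower in KO than in WT (1.94% of all peaks) and 1 higher in P915H than in WT (0.0455%), and a threshold of 0.1 gave 7 lower in KO than in WT (3.31%). For KO against WT the count ran from 0 to 9 with a sample left out and the median from -0.79 to -0.44. For P915H against WT and for WT against the mean of both mutants, no peak passed with any sample left out. The cause of these shifts was not tested. Fits that leave a sample out also rest on fewer samples, and the part of that was not tested either. The unknown depth limits weak peaks most, since no counting error can be given.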
